A study of Homo sapiens with 2 samples.

Results

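The 798 peaks described here are the accessible regions of human chromosome 13 whose start lies from 45 to 75 Mb, out of 187920 peaks in the series and beside 3162 other peaks on the same chromosome. The limits were set around a stretch in which the share of peak counts per 1 Mb and the RNA of the genes differed between the lines, so those values chose the peaks and are given below as a description, with no test. The data come from 5 established human lines of lung adenocarcinoma, namely HCC827, H2228, H1975, H838 and A549, which were grown apart, frozen, mixed in equal parts and captured together in 1 tube. From the 80% fraction of that capture there is 1 RNA library and 1 library of transposase-accessible DNA (ATAC), and every one of the 3298 barcodes of the joint matrix carries both. No line received a treatment, each line is 1 culture, and the files do not say which line a barcode came from. Barcodes were therefore put into 5 groups by RNA of genes outside chromosome 13. They are an A549-like group, an HCC827-like group and 3 groups called after a leading gene: S100A9, SLC30A8 and DHRS2. Which of H838, H1975 and H2228 each of the last 3 stands for was not settled by the markers. There are no replicates, so intervals are for counting error at 95% and barcodes are not treated as replicates.

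The stretch opens below RB1, holds that gene at 48.3 Mb, passes through the gene-poor band 13q21 and ends with KLF5 and KLF12, genes of the band 13q22. RB1 encodes the retinoblastoma protein, which holds back E2F transcription factors until cyclin-dependent kinases phosphorylate it, and it is a tumour suppressor lost in many cancers, including a share of lung cancers. Next to it lie DLEU1 and DLEU2, noncoding genes of a region often deleted in chronic lymphocytic leukaemia. KLF5 encodes a transcription factor of proliferating epithelium, and KLF12 a repressor of the same family.

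The start windows of 5 genes whose peaks and RNA are described one by one below are shown here. They are windows of 300 bases, 250 before to 50 after an annotated start, from RefSeq on GRCh38.p14, each read 5′ to 3′ on the strand of its gene. The window of RB1-DT (chr13:48303653-48303952, minus strand) is shown because it also holds the annotated start of RB1, which runs the other way. The windows of KLF5 (chr13:73058755-73059054, plus strand) and KLF12 (chr13:74134355-74134654, minus strand) belong to the 2 family members at the far end. The window of PCDH9 (chr13:67230287-67230586, minus strand), a protocadherin of neurons, and that of the noncoding gene LINC00355 (chr13:64075962-64076261, minus strand) stand in the gene-poor part. Capitals mark every match, on either strand, to 5 short motifs: TTTNNCGC (E2F), GGGCGG (SP and KLF factors), CCAAT (NF-Y), TGANTCA (AP-1) and TGACGT (CREB and ATF).
RB1-DT: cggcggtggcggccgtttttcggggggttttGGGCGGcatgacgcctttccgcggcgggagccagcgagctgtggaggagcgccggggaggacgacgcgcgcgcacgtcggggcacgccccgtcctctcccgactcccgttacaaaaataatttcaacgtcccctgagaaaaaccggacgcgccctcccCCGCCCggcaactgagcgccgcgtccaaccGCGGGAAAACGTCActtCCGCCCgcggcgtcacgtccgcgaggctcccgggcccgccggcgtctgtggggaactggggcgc
KLF5: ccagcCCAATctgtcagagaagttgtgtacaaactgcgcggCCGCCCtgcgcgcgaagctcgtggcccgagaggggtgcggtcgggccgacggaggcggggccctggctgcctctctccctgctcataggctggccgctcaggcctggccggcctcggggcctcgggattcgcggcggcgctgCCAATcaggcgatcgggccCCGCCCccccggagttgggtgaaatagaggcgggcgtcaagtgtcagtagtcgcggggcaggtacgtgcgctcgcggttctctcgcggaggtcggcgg
KLF12: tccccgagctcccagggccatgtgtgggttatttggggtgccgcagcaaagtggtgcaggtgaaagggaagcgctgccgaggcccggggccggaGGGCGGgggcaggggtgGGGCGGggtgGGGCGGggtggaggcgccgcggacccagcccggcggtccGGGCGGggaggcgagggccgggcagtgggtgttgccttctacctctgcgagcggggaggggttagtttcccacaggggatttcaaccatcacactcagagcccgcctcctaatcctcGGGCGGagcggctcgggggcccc
PCDH9: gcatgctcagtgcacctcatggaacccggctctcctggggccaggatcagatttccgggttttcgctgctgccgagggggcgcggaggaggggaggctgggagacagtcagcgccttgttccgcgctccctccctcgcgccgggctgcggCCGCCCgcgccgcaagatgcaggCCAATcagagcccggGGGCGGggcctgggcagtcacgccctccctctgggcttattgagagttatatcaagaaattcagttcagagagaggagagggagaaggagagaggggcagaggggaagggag
LINC00355: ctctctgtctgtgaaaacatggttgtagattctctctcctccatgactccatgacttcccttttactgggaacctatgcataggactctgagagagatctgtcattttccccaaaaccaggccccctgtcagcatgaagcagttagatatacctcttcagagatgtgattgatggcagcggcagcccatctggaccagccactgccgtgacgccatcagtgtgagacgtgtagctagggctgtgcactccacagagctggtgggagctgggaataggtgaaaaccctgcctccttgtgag
Bases G and C made up 71.3% of the RB1-DT window, 71.3% of that of KLF5, 72.3% of that of KLF12, 65.7% of that of PCDH9 and 52.0% of that of LINC00355. The RB1-DT window held 1 match to TTTNNCGC, read as its reverse complement GCGGGAAA, 1 to TGACGT and 3 to GGGCGG. KLF12 held 5 matches to GGGCGG, KLF5 and PCDH9 2 each, and LINC00355 held none of the 5 motifs, which says only that these letters are absent from that window. Over the 197 annotated start windows of the span, 8.12% held TTTNNCGC, against 6.89% of 35116 windows in the whole table, and 37.1% held GGGCGG, against 44.95%. CCAAT stood in 37.6% of the windows of the span against 34.6%, TGANTCA in 9.14% against 7.71%, and TGACGT in 5.08% against 7.98%. A match is a run of letters, not a bound site.

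All markers of each group, listed with earlier results of these data known, were highest in their own group: 9 of 9 for the A549-like, 8 of 8 for the HCC827-like, 7 of 7 for the S100A9, 6 of 6 for the SLC30A8 and 6 of 6 for the DHRS2 group. Most of these markers seeded the groups, all 6 of the SLC30A8 group among them, so the counts follow from the grouping and do not check it. Of 3298 barcodes, 2804 passed the filters and 2412 were placed in a group: 740, 415, 450, 574 and 233 in the same order, while 392 fitted no single group. Group totals ran from 7441005 to 22129100 peak counts and from 3453019 to 8884227 RNA molecules (UMIs). Between 98.2% and 100% of the barcodes of a group lay in 1 ATAC cluster made without chromosome 13. Median mitochondrial UMIs differed, from 0.417% in the SLC30A8 group to 13.8% in the HCC827-like group, with 4.45% in the DHRS2 group. With no mitochondrial limit the DHRS2 log2 ratio given below was -1.05 in place of -1.10. Among 9 markers of immune, endothelial and red cells, 2 red cell genes were at 0 in every group, no marker exceeded 8.69 CPM in any group (CPM, the count per 1e+06 counts of the group), and their sum ran from 2.51 CPM in the A549-like group to 11.6 CPM in the DHRS2 group.

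The span held far fewer of the peak counts in the DHRS2 group than in any other, and most in the SLC30A8 group. Its 798 peaks took 1297 CPM of all peak counts of the DHRS2 group (1262 to 1333), against 2633 CPM in the A549-like, 2566 CPM in the HCC827-like, 2656 CPM in the S100A9 and 3245 CPM in the SLC30A8 group. Set against each of the others, the DHRS2 level was 0.493 times that of the A549-like group, 0.505 times that of the HCC827-like group, 0.488 times that of the S100A9 group and 0.3998 times that of the SLC30A8 group. The DHRS2 group thus stood alone below, and the A549-like, HCC827-like and S100A9 groups differed from one another by no more than 1.04-fold. Against the mean CPM of the other 4 groups, the log2 ratio was -1.10 in the DHRS2 group (-1.14 to -1.06) and 0.50 in the SLC30A8 group (0.48 to 0.53). For the A549-like, HCC827-like and S100A9 groups it was 0.11, 0.06 and 0.13, and the sign of the HCC827-like and S100A9 values depended on the scaling (-0.024 and -0.019 with TMM factors). With all 2804 kept barcodes put in groups by ATAC clusters, the 392 that fitted no single group included, the DHRS2 ratio was -0.57. With the same 2804 barcodes each put in the group of its highest RNA weight it was -0.73. Among grouped barcodes whose ATAC cluster gave the same group it was -1.10. A share of peak counts does not tell the number of DNA copies and the accessibility of each copy apart, and no copy number was measured.

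The low share was a property of most barcodes of the DHRS2 group rather than of a few. Its barcodes had a median of 1241 CPM in the span (640 to 1779 from the 10th to the 90th percentile), against medians of 2631 in the A549-like, 2524 in the HCC827-like, 2660 in the S100A9 and 3230 in the SLC30A8 group. The DHRS2 median was undershot by 3.11% of A549-like, 7.47% of HCC827-like, 2.67% of S100A9 and 1.57% of SLC30A8 barcodes. The median barcode of the DHRS2 group had only 33 counts in the span, so the spread between barcodes includes much counting error.

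Along the chromosome, the DHRS2 and SLC30A8 groups moved apart over a stretch that began well before 45 Mb and closed near 75 Mb. In blocks of 15 Mb, the log2 ratio of the DHRS2 group was -0.29 from 15 to 30 Mb, -0.94 from 30 to 45 Mb, -1.04 from 45 to 60 Mb and -1.26 from 60 to 75 Mb, and then -0.13, -0.19 and -0.05 in the 3 blocks past 75 Mb. The SLC30A8 group had -0.13, 0.36, 0.52 and 0.47 in the first 4 blocks and -0.44, -0.68 and -0.89 in the last 3, so it was above the others in the same middle blocks and below them toward the end of the chromosome. The lower limit of 45 Mb therefore did not mark a step in either group. In bins of 1 Mb the DHRS2 group showed no single step below it: its ratio was -0.98 in the bin from 22 Mb, 0.51 from 23 Mb, -0.14 from 24 Mb, -0.47 from 25 Mb, -0.23 from 26 Mb and -1.09 from 27 Mb. From 27 to 45 Mb every bin but 1 was at -0.62 or below, and the bin from 35 Mb was at 0.22. Around the limits themselves, its ratio was -0.97 in the bin from 44 Mb and -0.96 in the bin from 45 Mb. At the far end it was -1.47 in the bin from 73 Mb, -0.02 in that from 74 Mb and -0.47 in that from 75 Mb. The 3162 peaks on the rest of the chromosome had a ratio of -0.35 in the DHRS2 group, -0.25 in the SLC30A8 group and 0.41 in the S100A9 group.

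**Figure D1:**
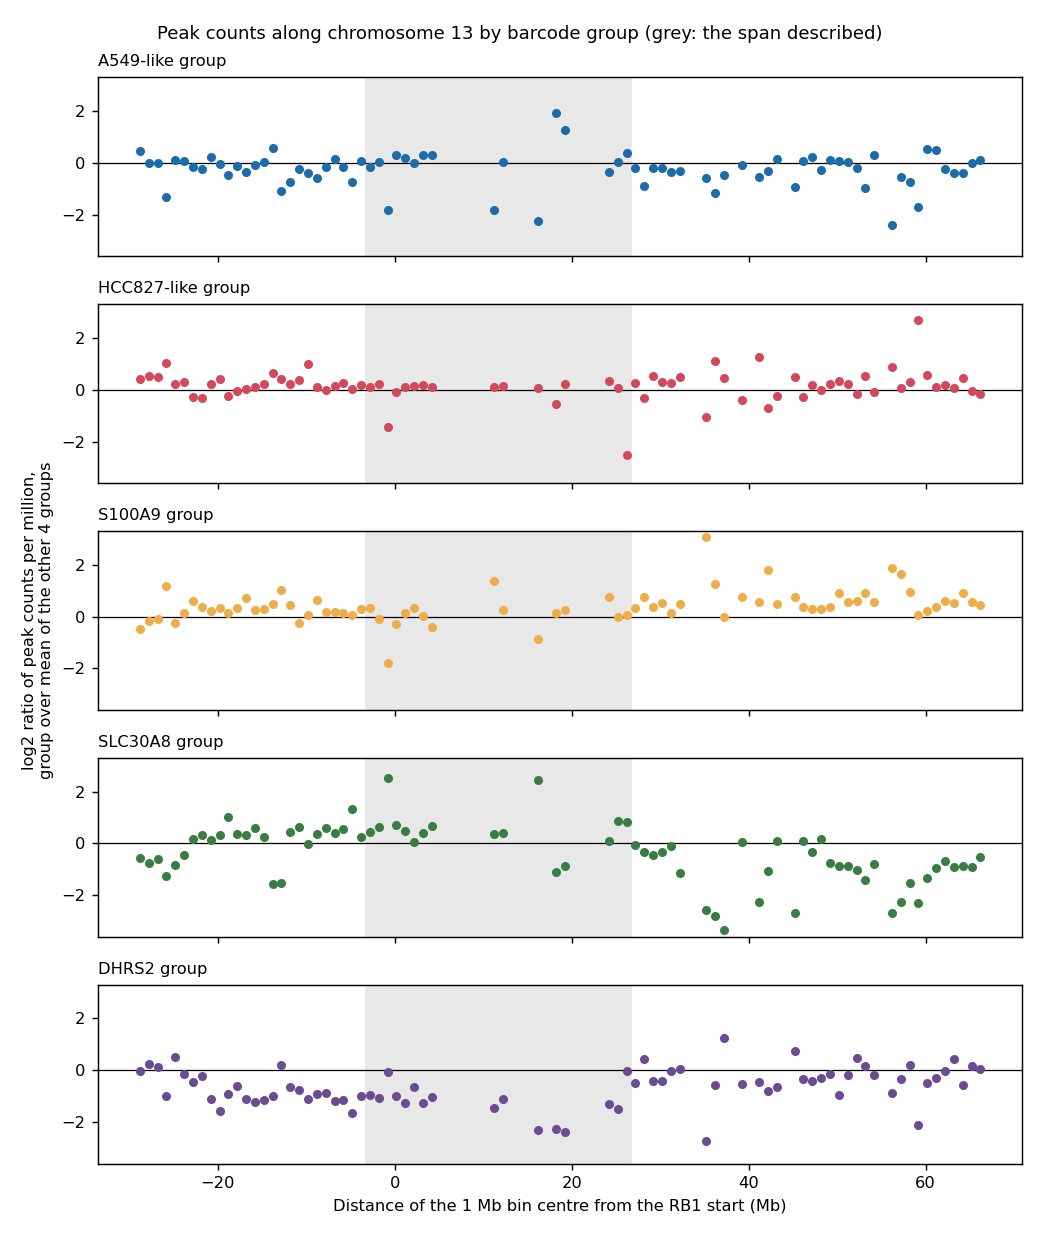
Log2 ratio of peak counts as CPM (group over the mean of the other 4 groups, vertical axis) in 1 Mb bins of chromosome 13 with at least 1000 counts, against the distance of the bin from the RB1 start in Mb; each panel is 1 barcode group and grey marks the span described. In the DHRS2 group all 16 measured bins of the span lie at or below -0.02, and in the SLC30A8 group 14 of the 16 lie above 0.

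Bins with few peaks carried the widest differences. Of the 30 bins of the span, 28 held a peak and 16 reached 1000 counts. At 1.5-fold, 14 of the 16 were lower in the DHRS2 group, where 13.2% of 2561 bins of the genome were, and 0 were higher (10.9%). In the SLC30A8 group 7 of 16 were higher (9.92% of all bins) and 2 lower (27.2%). Low DHRS2 values lower the mean used for every other group in these bins as well. The other groups had few: 3 lower (22.6%) and 2 higher (9.33%) in the A549-like, 2 lower (10.7%) and 0 higher (13%) in the HCC827-like, and 2 lower (13.8%) and 2 higher (13.4%) in the S100A9 group. Because these bins chose the span, the counts describe it and show nothing further. The extremes lay in thin bins: the bin from 47 Mb, with 14 peaks and 1261 counts, was at 62.0 CPM in the SLC30A8 group (ratio 2.52), against 7.10 CPM in the S100A9 group (-1.79), 7.15 CPM in the A549-like, 8.87 CPM in the HCC827-like and 20.1 CPM in the DHRS2 group. The lowest bin of the DHRS2 group began at 67 Mb (-2.37), that of the HCC827-like group at 74 Mb (-2.50), that of the A549-like group at 64 Mb (-2.23) and that of the SLC30A8 group at 66 Mb (-1.11).

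Peaks over annotated starts showed the DHRS2 and SLC30A8 differences more evenly than the other peaks. The 60 peaks of the span that overlap a start window took 483 CPM in the DHRS2 group (ratio -1.40), against 1324, 1179, 1040 and 1567 CPM in the A549-like, HCC827-like, S100A9 and SLC30A8 groups (ratios 0.31, 0.10, -0.13 and 0.64). The other 738 peaks had a ratio of -0.88 in the DHRS2 group and 0.39 in the SLC30A8 group. Of the 60, 34 had at least 1000 counts, and the DHRS2 group was the lowest of the 5 in 33 of them, as it was in 36.6% of 8960 such peaks of the genome. The SLC30A8 group was the highest in 30 of the 34 (31.8% of all) and the lowest in 0 (12.4%). The A549-like group was the highest in 3 (39.0%) and the lowest in 0 (7.44%), the HCC827-like group the highest in 1 (10.3%) and the lowest in 1 (22.2%), and the S100A9 group neither in any (12.4% and 21.3%), while the DHRS2 group was the highest in 0 (6.48%). The ratios of the 34 peaks ran from -2.34 to -0.56 in the DHRS2 group with a median of -1.33, against a median of -0.29 over all such peaks. None of the 34 was at 0 in the DHRS2 group: its lowest count was 22. Outside chromosome 13, the 12 peaks around CDKN2A on chromosome 9 together had 0.470 CPM in the A549-like group, 1.36 CPM in the SLC30A8 group and 2.76 CPM in the S100A9 group, against 148 CPM in the HCC827-like and 67.7 CPM in the DHRS2 group. Those 12 were not limited to strong start peaks, so they give no scale for the 34. The cause of the levels at either place was not tested.

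**Figure D2:**
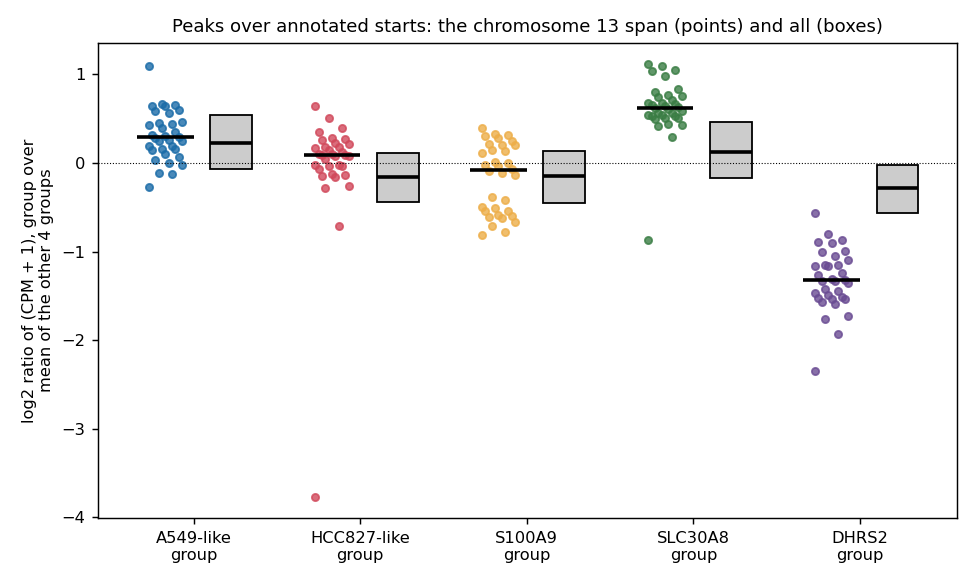
Log2 ratio of (CPM + 1), group over the mean of the other 4 groups, for the 34 start-site peaks of the span with at least 1000 counts (points, black bar at the median) and for all 8960 such peaks (grey box from the lower to the upper quartile, black bar at the median). The points of the DHRS2 group lie at or below -0.56 with a median of -1.33, those of the SLC30A8 group have a median of 0.62, and 1 point of the HCC827-like group, over a KLF12 start, lies at -3.77.

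RB1 followed the span in both libraries. The peak over its start (chr13:48303264-48304175, annotated to RB1-DT and holding the RB1 start) was at 9.49 CPM in the DHRS2 group (6.70 to 13.1), against 23.0 CPM in the A549-like, 10.8 CPM in the HCC827-like, 15.9 CPM in the S100A9 and 24.8 CPM in the SLC30A8 group. RB1 RNA (ENSG00000139687) was at 31.3 CPM in the DHRS2 group (25.7 to 37.8), against 107, 69.0, 57.9 and 175 CPM in the A549-like, HCC827-like, S100A9 and SLC30A8 groups. Here and below, ratios of single genes and peaks are of CPM + 1 against the mean of the other 4 groups + 1, which understates ratios at low levels. By that measure RB1 RNA had a ratio of -1.68 in the DHRS2 group and 1.39 in the SLC30A8 group. RB1 RNA was present in all 5 groups, and the start peak of the HCC827-like group (7.68 to 14.6) overlapped that of the DHRS2 group within counting error. RB1-DT, the divergent noncoding gene, was at 3.88 CPM in the SLC30A8 group and at 0.579 CPM in the DHRS2 group; whether RNA counting used strand is not given in the sources used here, so divergent and antisense pairs cannot be told apart with certainty.

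The neighbours of RB1 went the same way in the DHRS2 group. Of 12 measured genes in the list of RB1 neighbours, RB1 included, 6 were lower at 2-fold (16.7% of all 19582 measured genes) and 0 higher (7.55%), with a median ratio of -1.14 against -0.15 over all measured genes. LPAR6, a receptor for lysophosphatidic acid whose gene lies inside an RB1 intron, was at 2.32 CPM in the DHRS2 group, against 18.0, 4.43, 14.9 and 19.8 CPM in the A549-like, HCC827-like, S100A9 and SLC30A8 groups. FNDC3A, a protein with fibronectin domains, was at 101 CPM in the DHRS2 group, against 252, 154, 154 and 519 CPM in the same 4. In the SLC30A8 group 3 of the 12 were higher (12.6% of all genes), RB1, FNDC3A and CAB39L, and 0 lower (20.9%). Members below 2-fold in the DHRS2 group included MED4, a subunit of the Mediator complex, at a ratio of -0.55 and SUCLA2, of the citric acid cycle, at -0.75. ITM2B, a membrane protein mutated in familial dementias, stood out in the S100A9 group at 384 CPM (ratio 1.10), against 131, 227, 234 and 122 CPM in the A549-like, HCC827-like, SLC30A8 and DHRS2 groups.

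Nearer the lower limit, 2 genes had patterns of their own. TPT1, the abundant translationally controlled tumour protein, was at 1136 CPM in the S100A9 group (ratio 2.26), against 162, 324, 290 and 171 CPM in the A549-like, HCC827-like, SLC30A8 and DHRS2 groups. Its start peak showed no such difference, with a ratio of -0.12 in the S100A9 group. LCP1, the actin-bundling protein plastin of white blood cells, was at 74.1 CPM in the HCC827-like group (ratio 3.25), against 1.83, 15.8, 7.76 and 2.32 CPM in the A549-like, S100A9, SLC30A8 and DHRS2 groups. The peak over an LCP1 start (chr13:46181793-46182682) had the largest ratio of any measured peak of the span in the HCC827-like group (2.51), at 13.8 CPM (10.3 to 18.2), against 0.423, 5.56, 0.340 and 0.127 CPM in the same 4 groups. LCP1 is thus a gene whose start peak and RNA were both highest in the HCC827-like group, as RNA of ARL11, a small GTPase-like protein gene beyond RB1, was at 5.28 CPM there and no more than 0.290 CPM elsewhere. In the list of this stretch, 5 of 8 measured genes were lower in the DHRS2 group (16.7% of all genes) and 0 higher (7.55%), with a median ratio of -1.11 against -0.15 over all genes, among them COG3 of the Golgi complex at -1.26 and the RNA-binding factor ZC3H13 at -1.07. RUBCNL, an autophagy regulator outside that list and chosen after its values were seen, was at 80.5 CPM in the SLC30A8 group, against 0.228, 0, 2.25 and 0.579 CPM in the A549-like, HCC827-like, S100A9 and DHRS2 groups. A peak over a RefSeq start of RUBCNL (chr13:46386965-46387890) was not highest there. It had 0.255 CPM in the SLC30A8 group, against 1.46, 4.30, 5.24 and 0 CPM in the same 4 groups. The row of this gene reaches from 46387233 to 46438190, and peaks elsewhere along it were not examined, so this peak need not be the start in use.

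In the stretch around DLEU1 and DLEU2 most coding genes were lowest in the DHRS2 group, while DLEU1 and DLEU2 were not. DLEU1 RNA was still below the mean of the others in the DHRS2 group, with a ratio of -0.91. Of 15 measured list genes, 7 were lower (16.7% of all genes) and 0 higher (7.55%) in the DHRS2 group, with a median ratio of -0.99 against -0.15 over all genes. Those lower were the nuclear import factor KPNA3 (-1.13), SPRYD7 (-1.38), the ribonuclease H2 subunit RNASEH2B (-1.19), the Integrator subunit INTS6 (-1.21), the kinase NEK3 (-1.01), the endosomal sorting factor VPS36 (-1.18) and the spindle protein CKAP2 (-1.02). DLEU2, host of the miR-15a and miR-16-1 hairpins, was at 266 CPM in the DHRS2 group (ratio 0.02), against 230, 220, 156 and 440 CPM in the A549-like, HCC827-like, S100A9 and SLC30A8 groups. DLEU1, which starts at the same peak and runs the other way, was at 61.7 CPM in the SLC30A8 group (ratio -2.68), against 298, 701, 408 and 195 CPM in the A549-like, HCC827-like, S100A9 and DHRS2 groups. The paired RNAs therefore had their highest level in different groups. Their shared start peak (chr13:50081716-50082495) was at 7.72 CPM in the DHRS2 group (ratio -1.59), against 31.1, 26.5, 16.1 and 27.7 CPM in the A549-like, HCC827-like, S100A9 and SLC30A8 groups. DLEU7 was also low in the SLC30A8 group, at 0.923 CPM (ratio -4.42), against 31.1, 61.5, 56.8 and 11 CPM in the A549-like, HCC827-like, S100A9 and DHRS2 groups. THSD1, a thrombospondin-domain protein, had the largest ratio of any gene of the span in the DHRS2 group (0.75), at only 6.95 CPM (4.45 to 10.3).

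The gene-poor part held few peaks. From 53 to 72 Mb, limits chosen after seeing the values, there were 198 peaks, 8 of them over a start, and 42 reached 100 counts. They took 126 CPM in the DHRS2 group, against 329 CPM in the A549-like, 332 CPM in the HCC827-like, 418 CPM in the S100A9 and 360 CPM in the SLC30A8 group. Of the 42, 31.0% were at least 4-fold higher in some group, against 15.5% of the 296 such peaks of the span, the 42 included, and 12.3% of 101711 in the genome. A peak can reach 100 counts through 1 group alone, most easily where counts are low. The shares are therefore tied to the filter and do not show that peaks differ more here. PCDH9 was the most divided gene. Its RNA was at 1086 CPM in the A549-like and 400 CPM in the SLC30A8 group, and at 2.89 CPM in the HCC827-like, 3.38 CPM in the S100A9 and 1.45 CPM in the DHRS2 group. Its start peak (chr13:67230079-67230939) was at 46.3 CPM in the A549-like (ratio 1.10) and 15.3 CPM in the SLC30A8 group (-0.87), and at 32.5 CPM in the HCC827-like, 29.4 CPM in the S100A9 and 7.34 CPM in the DHRS2 group. Accessibility of the start and RNA thus ordered the groups differently, since the HCC827-like and S100A9 groups had a higher start peak than the SLC30A8 group and far less RNA. The antisense genes PCDH9-AS2, PCDH9-AS3 and PCDH9-AS4 and the noncoding AL160254.1 were likewise highest in the A549-like group (55.9, 8.91, 14.4 and 50.02 CPM).

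LINC00355 was on in 2 groups and all but absent in 3. Its RNA was at 150 CPM in the SLC30A8 and 134 CPM in the HCC827-like group, and at 2.14 CPM in the S100A9, 0.228 CPM in the A549-like and 0 CPM in the DHRS2 group (up to 1.07). The peak over its start (chr13:64075453-64076314), whose window above held none of the 5 motifs, was likewise high in those 2 groups, at 19.4 and 14.9 CPM in the SLC30A8 and HCC827-like groups, with 0.542, 0.0941 and 0.253 CPM in the S100A9, A549-like and DHRS2 groups. LINC02335 (98.6 CPM) and LINC00383 (87.5 CPM) were high in the SLC30A8 group, and no other group passed 0.869 CPM for the first or 1.14 CPM for the second. The noncoding AL442636.1 had the smallest ratio but one in the A549-like group, at 0.228 CPM (-5.20), against 75.4, 11.8, 89.2 and 0.579 CPM in the HCC827-like, S100A9, SLC30A8 and DHRS2 groups, an order close to that of LINC00355. DIAPH3, a formin that builds actin filaments, was at 454 CPM in the SLC30A8 group (ratio 2.11) and 23.5 CPM in the S100A9 group (-3.12), with 194, 120 and 79.1 CPM in the A549-like, HCC827-like and DHRS2 groups. Its start peak (chr13:60163544-60164447) was nearly even among 4 groups, at 36.6, 33.4, 25.8 and 29.4 CPM in the SLC30A8, S100A9, A549-like and HCC827-like groups, with 13.5 CPM in the DHRS2 group. In the S100A9 group the DIAPH3 start peak had a ratio of 0.33, opposite in sign to that of the RNA. Of the 9 genes listed for this band only PCDH9, DIAPH3 and TDRD3 were measured; the adhesion genes PCDH8, PCDH17 and PCDH20, the mucus protein OLFM4, KLHL1 and DACH1 had under 20 UMIs.

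KLF5, at the far end, was lowest in the DHRS2 group in both libraries. The peak over its main start (chr13:73058443-73059321) was at 19.9 CPM in the DHRS2 group (15.7 to 24.8; ratio -1.52), against 56.9, 50.1, 40.9 and 87.5 CPM in the A549-like, HCC827-like, S100A9 and SLC30A8 groups. KLF5 RNA (ENSG00000102554) was at 40.3 CPM in the DHRS2 group (33.8 to 47.5; ratio -1.68), against 179, 84.1, 94.9 and 168 CPM in the same 4. Peak and RNA gave the same lowest group but not the same highest one. Within 500 kb of the KLF5 gene start there were 76 peaks, of which 30 reached 100 counts. Of these, 27 overlapped no start window, though some were near the gene start, with centres at -1.27 and 1.27 kb from it. Those 27 summed to 42.6 CPM in the DHRS2 group, against 101, 99.3, 104 and 172 CPM in the A549-like, HCC827-like, S100A9 and SLC30A8 groups. The largest part of the SLC30A8 sum from 1 peak was 46.5 of the 172 CPM, and the peak at chr13:73096161-73096975 added 27.9 CPM. The larger of these lies 156832 bases from the KLF5 row of the matrix (chr13:73215838-73216751). It was at 46.5 CPM in the SLC30A8 group (41.2 to 52.4), against 0.329, 0.538, 5.96 and 0.127 CPM in the A549-like, HCC827-like, S100A9 and DHRS2 groups. Its ratio was the largest of the span in the SLC30A8 group (4.12) and the smallest in both the DHRS2 (-3.67) and A549-like groups (-3.43). Other peaks of the region, picked from the plot, were high in 1 group as well: the peak at chr13:73041058-73041685 was at 16.4 CPM in the A549-like group and no more than 2.04 CPM in any other.

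**Figure D3:**
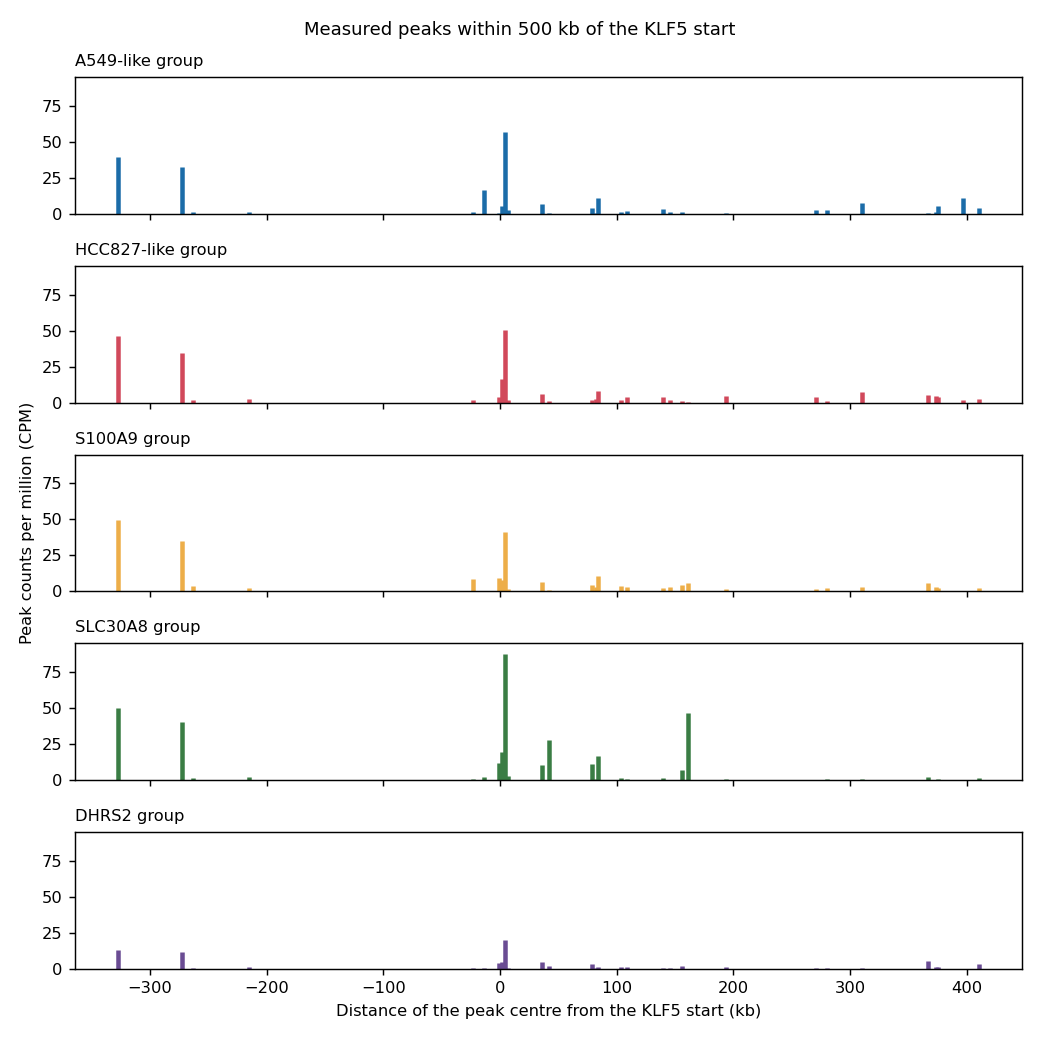
Peak counts as CPM (vertical axis, from 0) of the 30 measured peaks within 500 kb of the annotated KLF5 gene start, by distance of the peak centre from it in kb; each panel is 1 barcode group. The tallest bar in each group except the S100A9 group is the main KLF5 start peak, at 19.9 CPM in the DHRS2 group and 87.5 CPM in the SLC30A8 group, and the bar near 161 kb reaches 46.5 CPM in the SLC30A8 group and 5.96 CPM or less elsewhere.

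KLF12 departed from the span in the HCC827-like group and, less clearly, in its RNA in the DHRS2 group. In the HCC827-like group its RNA was at 0.681 CPM (ratio -5.88). The peak over an annotated KLF12 start (chr13:74133932-74134785) was at 1.08 CPM there (0.293 to 2.75, ratio -3.77). The annotated gene start of KLF12 lies elsewhere, at 74.306 Mb. The other groups had 119, 36.2, 160 and 75.9 CPM of RNA in the A549-like, S100A9, SLC30A8 and DHRS2 groups, and 30.5, 25.8, 39.4 and 13.4 CPM at the start peak. This was the only strong start peak of the 34 that was not lowest in the DHRS2 group. It overlaps the KLF12 window shown above, with 5 matches to GGGCGG. It also overlaps another KLF12 window (chr13:74133880-74134179, minus strand), not shown, with 0 matches to GGGCGG and 1 to TTTNNCGC. KLF12 RNA in the DHRS2 group stood close to the mean of the others, with a ratio of -0.06. The HCC827-like level of 0.681 CPM lowers that mean. The DHRS2 level was below those of the A549-like and SLC30A8 groups and above that of the S100A9 group. The start peak ratio in the DHRS2 group was -0.80. The other 5 genes of the 13q22 list were all lower at 2-fold in the DHRS2 group (16.7% of all genes): the kinase activator BORA (-1.55), MZT1 of the centrosome (-1.77), the exosome nuclease DIS3 (-1.19), PIBF1 (-1.02) and KLF5. In the bin from 74 Mb, 19 peaks other than the strongest 2 together had 34.8 CPM in the DHRS2 group, against 17.1, 7.39, 14.9 and 21.1 CPM in the A549-like, HCC827-like, S100A9 and SLC30A8 groups, whereas the strongest 2 had 21.5 CPM in the DHRS2 group, against 52.3, 4.70, 44.5 and 67.2 CPM. The ratio of -0.02 in this bin was thus a sum of peaks that differed in opposite directions.

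At the level of single peaks, 296 of the 798 had at least 100 counts and could be set against a 2-fold threshold. In the DHRS2 group 133 of the 296 were lower (15.9% of 101711 peaks of the genome) and 6 higher (12%). In the SLC30A8 group 59 were lower (27.4%) and 43 higher (8.63%), and in the S100A9 group 30 lower (14.2%) and 51 higher (14.8%). For the A549-like group 67 were lower (31.4%) and 31 higher (9.24%), and for the HCC827-like group 57 lower (17.9%) and 26 higher (10.0%). A peak that is very high in 1 group raises the mean against which the others are set, so a lower call need not mean the lowest level. The median width was 887 bases in the span and 881 bases over all peaks, and 52 of the 296 overlapped a start window, as did 13796 of the 101711. The peaks named next are those with the largest or smallest ratio in a group. A peak with the largest ratio can pass the filter of 100 counts through that group alone. The largest ratio in the A549-like group was that of a peak 8453 bases from PCDH9-AS1 (chr13:66312325-66313251), at 14.7 CPM (12.5 to 17.2) and no more than 0.681 CPM elsewhere. In the S100A9 group it was a peak over the LINC00345 start (chr13:52599870-52600727), at 7.73 CPM (6.18 to 9.55) and no more than 0.511 CPM elsewhere. In the DHRS2 group it was chr13:62642703-62643613, at 11.1 CPM (8.09 to 14.9) and at 0.705, 0.269, 3.84 and 1.36 CPM in the A549-like, HCC827-like, S100A9 and SLC30A8 groups. The smallest ratio in the S100A9 group belonged to chr13:47672876-47673774, with 0 counts in the S100A9 and HCC827-like groups and 18.8 CPM in the SLC30A8 group. The smallest in the SLC30A8 group was chr13:72291022-72291936, at 0.170 CPM there and 19.6 CPM in the S100A9 group. The DHRS2 group was thus low over most of the span, with single peaks inside it that were highest there.

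The peaks next to the limits of the span differed among themselves. The last peak before it (chr13:44989054-44989961), over the starts of GPALPP1 and NUFIP1, had a ratio of -0.86 in the DHRS2 group and 0.59 in the SLC30A8 group. The first peak inside (chr13:45046997-45047809) had -0.34 and 0.11 in the same groups. The last peak inside (chr13:74891442-74892321) held 86 counts, too few to be called, with a ratio of -0.20 in the DHRS2 group and 1.55 in the A549-like group. The first peak after it (chr13:75135243-75136164) had 1.65 in the DHRS2 group, 0.70 in the SLC30A8 group and -1.71 in the A549-like group.

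RNA of the span as a whole ordered the groups much as the peaks did at the bottom and top. The genes of the span took 2044 CPM of all UMIs in the DHRS2 group (ratio -1.20), against 5099, 3732, 3938 and 5991 CPM in the A549-like, HCC827-like, S100A9 and SLC30A8 groups (ratios 0.38, -0.19, -0.10 and 0.69). Without TPT1, the S100A9 ratio was -0.51 and the DHRS2 ratio -1.17. Of 179 genes with a row in the span, 83 had at least 20 UMIs, 96 did not, and 46 of those had none. In the DHRS2 group 48 of the 83 were lower at 2-fold (16.7% of all 19582 measured genes) and 0 higher (7.55%), with a median ratio of -1.07. With groups from ATAC clusters, which also take in the barcodes that fitted no single group, 22 were lower. The SLC30A8 group had 23 higher (12.6%) and 9 lower (20.9%), the S100A9 group 3 higher (10.1%) and 26 lower (20.5%), the A549-like group 12 higher (12.5%) and 11 lower (18.3%), and the HCC827-like group 9 higher (6.93%) and 16 lower (20.0%). Because RNA in the span was part of the choice of limits, these counts are descriptive. The low DHRS2 levels also lower the mean against which the other groups are set.

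**Figure D4:**
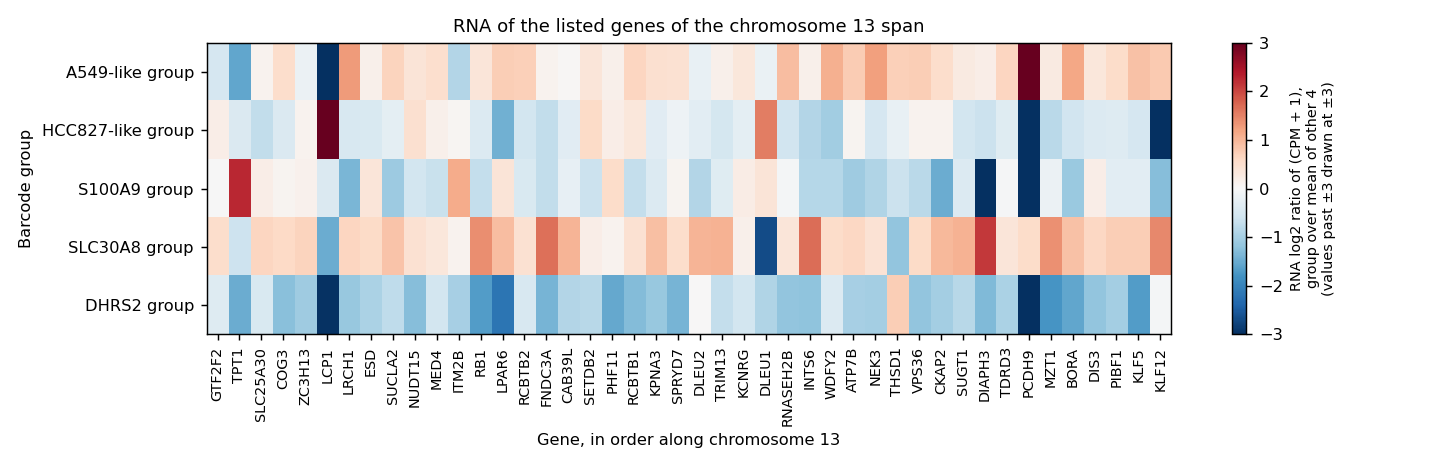
RNA log2 ratio of (CPM + 1), group over the mean of the other 4 groups, for the listed genes with at least 20 UMIs, in order along the chromosome from left to right; rows are the 5 barcode groups, red is higher and blue lower, and values past 3 are drawn at 3. The DHRS2 row is blue for nearly all genes, with DLEU2 (0.02), KLF12 (-0.06) and THSD1 (0.75) as the exceptions, and the SLC30A8 row is mostly red, with DLEU1 (-2.68) as its darkest blue cell.

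Where a gene had both a strong start peak and measured RNA, the libraries mostly went the same way in the DHRS2, SLC30A8 and A549-like groups and not in the other two. There were 36 such pairs, some of which share a peak. In the DHRS2 group both values lay below the mean of the others in 35 of 36 pairs, as in 49.4% of 8855 pairs of the genome, with a median of -1.33 for the peaks and -1.10 for RNA. In the SLC30A8 group both lay above in 31 of 36 (42.4% of all), with medians of 0.61 and 0.62. The odd pair of the DHRS2 group was DLEU2. In the A549-like group 26 pairs were both above (42.6%) and 1 both below (22.1%). The low DHRS2 values lower the mean used for the SLC30A8 and A549-like groups, so a pair above it need not stand above each other group. The HCC827-like group had 8 pairs both below (54.5%) and 6 both above (17.5%), and the S100A9 group 16 both below (45.7%) and 5 both above (19.8%). In these groups the start peak and the RNA of a gene often lay on opposite sides of the mean of the others. In the HCC827-like group the median RNA ratio was -0.35 in the span and -0.30 over all 8855 pairs. Its median peak ratio in the span was 0.10. Opposite signs there need not be particular to single genes.

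**Figure D5:**
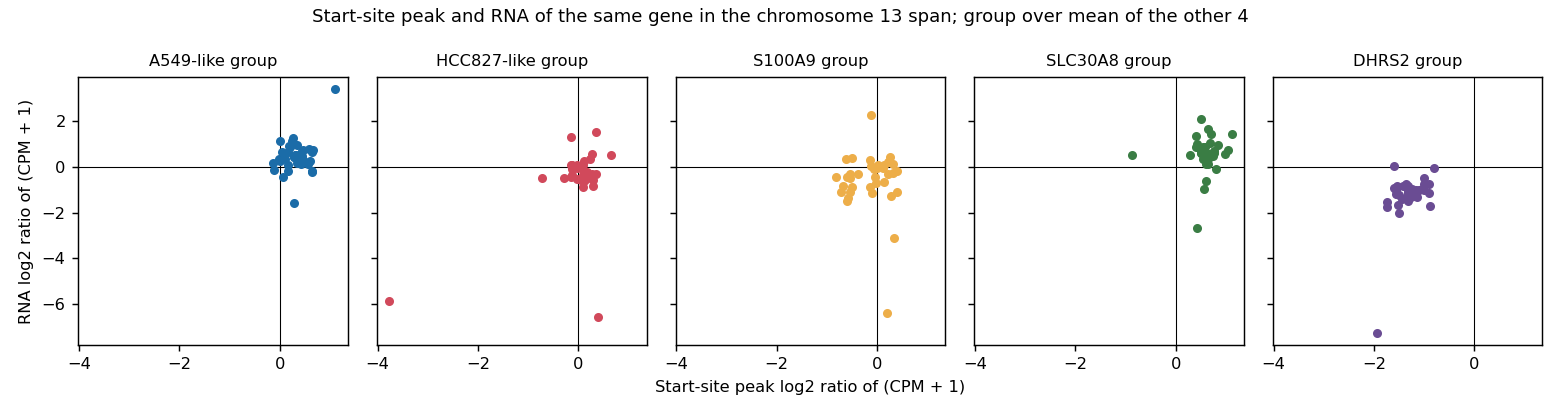
RNA log2 ratio (vertical axis) against start-site peak log2 ratio (horizontal axis) for the 36 pairs of gene and start peak of the span, each as (CPM + 1) of the group over the mean of the other 4 groups; each panel is 1 barcode group. In the DHRS2 panel 35 of 36 points lie below and left of 0, and the point far below the rest is PCDH9 (peak -1.94, RNA -7.25); in the HCC827-like panel the points far below are PCDH9 (RNA -6.58) and KLF12 (-5.88).

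Genes of the RB pathway outside the span, 19 listed and 19 measured, were called in the DHRS2 group about as seldom as all genes. There, 2 were lower (16.7% of all genes) and 0 higher (7.55%), with a median ratio of -0.10 against -0.15 over all genes. The 2 were CDK4, the kinase that phosphorylates the RB1 protein, at 38.2 CPM (-1.89) and cyclin D3 (CCND3) at 11.6 CPM (-1.33). CDK4 was at 461 CPM in the HCC827-like group, which raises the mean of the others for every other group. The kinase inhibitor CDKN2A was at 101 CPM in the DHRS2 and 321 CPM in the HCC827-like group, and at 5.25, 5.97 and 2.03 CPM in the A549-like, S100A9 and SLC30A8 groups. The SLC30A8 group, which had the most RB1 RNA and the least CDKN2A RNA, had 4 lower (20.9% of all genes) and 4 higher (12.6%). The 4 higher were E2F1 (22.3 CPM, 1.41), E2F2 (18.5 CPM, 2.53), E2F3 (199 CPM, 1.02) and the inhibitor CDKN2C (11.4 CPM, 1.21). The 4 lower were CDKN2A (2.03 CPM, -5.17), CDKN2B (0.185 CPM, -4.10), CDK4 (23.5 CPM, -2.61) and CCND3 (14.0 CPM, -1.05). High HCC827-like levels of CDKN2A, CDKN2B and CDK4 raise the mean of the others for these genes. In the S100A9 group 9 were lower (20.5% of all genes) and 2 higher (10.1%), with CDK6 at 27.6 CPM (-3.20) and cyclin D1 (CCND1) at 163 CPM (1.19). Both close relatives of RB1 were measured as well: RBL1 was at 86.3 CPM in the DHRS2 group (ratio 0.30) and RBL2 at 80.8 CPM (-0.16).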

How the data were processed

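RNA and ATAC were measured in the same 3298 barcodes of 1 capture. Per the submitters' processing notes, the tool was Cell Ranger ARC 2.0.0 and the build GRCh38. The values the authors deposited are raw whole-number counts, as UMIs per gene and counts per peak, without normalisation. Details of cell calling, peak calling, annotation and strand were not given in the sources used here. Of the non-zero peak entries 83.3% are even, so a fragment was taken as 2 counts and exact intervals were computed on counts divided by 2.

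Barcodes needed at least 1000 UMIs, 500 genes and 1000 peak counts, and at most 20% mitochondrial UMIs. Groups came from seeds (at least 3 marker UMIs, 80% from 1 group) and a multinomial mixture over 2000 variable genes outside chromosome 13. A weight of at least 0.8 for 1 group was required, which left out mixed barcodes; no other doublet call was made. Sums were scaled to CPM of each group's total. Bins needed 1000 counts (1.5-fold), peaks 100 counts and genes 20 UMIs (2-fold, CPM + 1). Starts and sequences are from RefSeq tables of GRCh38.p14; positions are 1-based. TMM factors (edgeR 4.0.16, R 4.3.3), binarised counts and other groupings served as alternatives; other steps used Python 3.11.15, scanpy 1.11.5, scipy 1.17.1 and numpy 2.4.6.

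The peaks, gene lists, markers and thresholds were chosen with earlier results of these data known. Named genes are the lists by place, the RB pathway list, and per group the 2 genes and the 1 peak with the largest and smallest ratio. Other names were chosen after their values were seen. Depth limits single peaks most: intervals cover counting error only, and with 1 library of each kind there is no replicate error.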

Additional observations from a re-analysis of the deposited data

How the results depend on the processing

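No paired analysis was possible because there is 1 library of each kind and the labels give no replicate numbers. The DHRS2 group stayed below the mean of the others under all 8 alternatives run for the span, and the SLC30A8 group above it; the cause of the moves was not tested. The DHRS2 log2 ratio was -1.17 with TMM factors, -0.97 with binarised counts, -0.73 with no minimum weight, -1.05 with no mitochondrial limit, -0.57 with ATAC clusters and -1.01 with seed barcodes only, against -1.10. The settings with ATAC clusters and with no minimum weight also took in the 392 barcodes that fitted no single group. The SLC30A8 ratio was 0.63 with TMM factors, 0.40 with binarised counts, 0.45 with no minimum weight and 0.40 with ATAC clusters. For the A549-like group it was 0.22 with TMM factors, 0.077 with no minimum weight, 0.0096 with ATAC clusters and 0.078 with seed barcodes. The HCC827-like ratio was reversed with TMM factors (-0.024) and in distal peaks only (-0.068), and was 0.013 with ATAC clusters. That of the S100A9 group was reversed with TMM factors (-0.019), and was 0.17 with binarised counts, 0.0057 with no minimum weight, 0.043 with ATAC clusters and 0.22 in distal peaks. TMM moved the median of all bins in the A549-like (-0.15 to -0.03), S100A9 (0.07 to -0.06) and SLC30A8 groups (-0.20 to -0.06); relative to the median, the DHRS2 ratio was -1.09 with totals and -1.10 with TMM, and the SLC30A8 ratio 0.70 and 0.69. Over all genes TMM moved the median in the HCC827-like group from -0.34 to -0.16 and in the A549-like group from -0.03 to -0.16. An alternative chosen after seeing the data, keeping barcodes whose ATAC cluster gave the same group, left the DHRS2 ratio at -1.10.

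Counts of bins moved with binarised counts, to 0 lower in the A549-like and 0 lower and 1 higher in the S100A9 group and 3 higher in the SLC30A8 group. With no minimum weight the A549-like group had 6 lower, the HCC827-like 1 higher and the S100A9 4 higher; with ATAC clusters the A549-like had 6 lower, the HCC827-like 4 lower and 1 higher, and the S100A9 4 higher. With no mitochondrial limit the HCC827-like group had 1 higher bin, and in distal peaks the S100A9 group 1 lower. With no minimum count, 2-fold peaks numbered 101 lower and 56 higher in the A549-like, 66 higher in the HCC827-like, 49 lower and 103 higher in the S100A9, 81 higher in the SLC30A8 and 23 higher in the DHRS2 group. With ATAC clusters, genes lower at 2-fold numbered 22 in the DHRS2 and 17 in the S100A9 group. Of the other values, 18 of 40 span ratios, 34 of 40 and 33 of 40 bin counts, 13 of 20 peak counts and 38 of 40 gene counts were classed as unmoved. Some of these still changed. Lower bins of the DHRS2 group went from 14 to 11 with binarised counts and to 10 with ATAC clusters. Its lower peaks went from 133 to 178 with no minimum count. With CPM + 0.1, lower genes went from 48 to 59 in the DHRS2 and from 16 to 23 in the HCC827-like group.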
